A study of Homo sapiens with 24 samples.

Results

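The genes described here are weakly expressed autosomal genes that begin shortly after the end of an expressed gene on the same strand. A gene was included when its mean level in vehicle-treated cells was under 5 CPM (the gene's share of the library's total count, times 1e6), its counts summed to at least 30 over the 9 libraries, and a same-strand gene of at least 10 CPM in vehicle ended 1 to 10000 bp before its start. Zinc-finger genes named ZNF, LINC genes and histone genes were left out. This gave 926 genes of the 60232 in the count table, lying behind 886 different upstream genes. They were compared with 7449 other low genes that met the same limits on level, count and name but had no such upstream gene.

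RNA was sequenced from 22Rv1, a human cell line established from a prostate carcinoma. The 3 groups used were the vehicle DMSO, the compound KB02 at 200 µM and the compound KB05 at 200 µM, each with 3 libraries from biological triplicates. Cells given KB02 or KB05 were exposed for 1 h and recovered without compound for 2 h, together the 3 h of the sample titles. For DMSO, also titled 3 h, these times are not given. The count columns of all 3 groups carry the label 2h instead. No genotype change or other agent is given for any of the 3 groups, and a further 15 samples taken at 8 h were not analysed here.

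The 9 libraries held between 15507130 and 21900671 estimated counts, so 3 counts corresponded to 0.137 to 0.193 CPM. All 9 luminal prostate markers checked were present in DMSO, among them KRT8 at 1022 ± 85.6 and KLK3 at 49.5 ± 2.80 CPM (mean ± SD, n = 3). Of 10 markers of other cell types, VWF and KRT5 were at 0 in DMSO, and the summed level of the 10, most of it SYP at 237.9 ± 11.8 CPM, was 256.0 to 286.6 CPM in DMSO, 166.8 to 183.7 with KB02 and 227.9 to 251.6 with KB05. COL1A1 went the other way from the sum, at 13.9 ± 1.08 CPM in DMSO, 24.0 ± 4.23 with KB02 and 19.3 ± 0.905 with KB05. The means of COL3A1 (3.32 ± 0.523 CPM in DMSO, 3.82 ± 0.725 with KB02), CD3E, KRT14, VWF and KRT5 were also higher with KB02. All of these but COL3A1 were under 1 CPM in both groups. Of the 9 luminal markers, 2 were called higher and 5 lower with KB02, among them EPCAM at 162.9 ± 14.4 CPM in DMSO and 65.6 ± 6.59 with KB02, and 5 were called higher and 2 lower with KB05 (edgeR, adjusted p under 0.05). The part of these markers in the results was not tested.

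RNA polymerase II does not stop at the end of a gene. It transcribes past the polyadenylation signal, the transcript is cut behind that signal by the cleavage and polyadenylation complex, and the exonuclease XRN2 degrades the RNA still attached to the polymerase until it leaves the DNA. Where cutting or release fails, which is known from heat, osmotic and other stress and from some viral infections, transcription can run on into the next gene. A gene count alone does not tell a transcript begun at a gene's own promoter from one begun upstream, and the origin of the transcripts was not tested.

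The ends of 5 upstream genes are shown as examples, chosen after the values were seen. The low genes behind them were 9-fold or more higher with KB02, as were those behind other upstream genes described below and not printed. Each is the last 30 bases of the gene as GENCODE release 29 places it on GRCh38, written 5′ to 3′ on the gene's own strand, with the polyadenylation hexamers AATAAA and ATTAAA in capitals (positions in the order of the lines are chr17:42843729-42843758, plus strand; chr1:160358923-160358952, plus strand; chr11:64764606-64764635, minus strand; chr16:70246778-70246807, minus strand; chr6:44299654-44299683, minus strand).
PSME3, before AOC3: gaAATAAAgtttcctcatcttccaccttgc
NCSTN, before NHLH1: agtttcATTAAAatagattatcccacacga
SF1, before PYGM: ttgAATAAAagagcagtgtggttttctggg
EXOSC6, before SMG1P7: gaaAATAAActatttcattgttgtcagaaa
AARS2, before TCTE1: ccctgctggtttgttgatgaattgagcaac

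PSME3, SF1 and EXOSC6 carried AATAAA in this window and NCSTN carried ATTAAA, while AARS2 had neither. Of 9 upstream ends read, 5 held a hexamer in the last 30 bases. Of the 4 not printed, MRPL50 before BAAT held AATAAA, and NDUFA2 before CD14, MBD1 before CFAP53 and SUOX before IKZF4 held neither. The printed ends thus held a hexamer more often than those not printed. Over all 886 upstream genes, 55.1% had AATAAA, on the transcribed strand, in the last 40 bases of the gene, against 58.5% of the 9010 expressed autosomal genes. The share was 52.2% for the 182 upstream genes of low genes at least 2-fold higher with KB02 and 55.9% for the 714 upstream genes of the rest. Adding ATTAAA gave 68.1% and 69.5%. A match describes these letters only, and annotated ends of long isoforms need not be the end that 22Rv1 cells use.

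The start regions of 2 of the low genes, chosen after their values were seen, illustrate how different they are. Both are 250 bases before the RefSeq start of the gene on GRCh38.p14. That of CFAP53 (chr18:50266496-50266745, minus strand), which lies directly behind MBD1, held 23 CG dinucleotides in the 300 bases that reach 50 past the start. That of BAAT (chr9:101383565-101383814, minus strand), a liver gene, held 1, and the capitals mark TATAAA and TTTATT, the latter being AATAAA read on the other strand.
CFAP53: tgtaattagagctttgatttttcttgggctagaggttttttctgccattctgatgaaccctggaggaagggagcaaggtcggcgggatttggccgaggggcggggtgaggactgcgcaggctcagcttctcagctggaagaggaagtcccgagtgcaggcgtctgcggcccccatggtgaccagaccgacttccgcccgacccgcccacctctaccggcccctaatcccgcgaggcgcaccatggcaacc
BAAT: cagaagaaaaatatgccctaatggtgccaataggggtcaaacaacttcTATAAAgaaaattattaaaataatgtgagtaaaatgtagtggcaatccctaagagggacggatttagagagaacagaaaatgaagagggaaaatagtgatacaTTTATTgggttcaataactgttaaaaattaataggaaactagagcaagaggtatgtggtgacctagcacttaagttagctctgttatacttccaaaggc

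Both genes were more than 10-fold higher with KB02, as given below. RefSeq promoter windows of 300 bases matched 366 of the 587 low genes with a gene symbol. Their median number of CG dinucleotides was 13, against 20 in 3540 other low genes and 14 in all 26246 autosomal windows. The 366 windows were those nearest the GENCODE start of each gene. For other low genes and all autosomal genes the first listed window of each gene was used, so these sets are not matched in how windows were chosen. Within the 366, the 98 genes at least 2-fold higher with KB02 had a median of 9.5 and the 268 others a median of 16. TATAAA, searched on both strands anywhere in the window, was present in 19.4% of the 98, 11.6% of the 268, 9.27% of other low genes and 12.0% of all autosomal windows.

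By annotation, 481 of the 926 genes (51.9%) were protein-coding, 177 antisense and 110 long intergenic non-coding genes, and 233 had a single exon. Among other low genes 52.2% were protein-coding. The distance from the upstream gene's end to the low gene's start ranged from 7 to 9998 bp, with a median of 3886 bp. In DMSO the low genes had a median of 0.822 CPM, against 0.735 for other low genes, and their upstream genes had a median of 44.5 CPM and a range of 10.1 to 2371. Per kilobase of exon, the low gene's level was 3.72% of its upstream gene's in DMSO at the median. Of the 926 genes, 622 overlapped no gene of 10 CPM or more, 76 overlapped one on the same strand and 245 one on the opposite strand. The sources used here do not give whether the counting used strand, so reads of overlapping and antisense genes cannot be told apart, and shares are also given for the 622 alone.

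With KB02, 187 of the 926 genes (20.2%) were at least 2-fold higher than in DMSO and 24 (2.59%) at least 2-fold lower, counted on the ratio of mean CPM with 0.25 CPM added to both. The same rule was met in the higher direction by 6.6% and in the lower by 3.37% of all 21107 genes with 30 or more counts. Among other low genes, whose level in DMSO was limited in the same way, 8.87% were higher and 2.70% lower. The median log2 ratio was 0.33 in the genes behind expressed genes and 0.14 in other low genes, where all genes had 0.13. At least 4-fold differences upward were found in 44 of the 926 genes and 8-fold differences in 12. Among the 7449 other low genes these were found in 110 and 21. Without overlapping genes the share higher was 23.3% of 622, against 8.47% of 5358 other low genes. With 1 CPM added in place of 0.25, 76 of the 926 (8.21%) and 3.17% of other low genes were at least 2-fold higher, and 6 (0.648%) and 0.591% at least 2-fold lower.

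With KB05, 54 genes (5.83%) were at least 2-fold higher than in DMSO and 55 (5.94%) at least 2-fold lower. Over all 21107 genes 4.74% were higher and 2.17% lower, and among other low genes 8.30% and 2.44%. The median log2 ratio was -0.01, against 0.10 in other low genes. Both comparisons share the DMSO libraries. In the 622 genes without an overlap 6.11% were higher and 4.34% lower, against 8.12% and 1.61% of other low genes. With 1 CPM added, 26 of the 926 (2.81%) were at least 2-fold higher and 12 at least 2-fold lower, against 2.89% and 0.483% of other low genes.

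**Figure D1:**
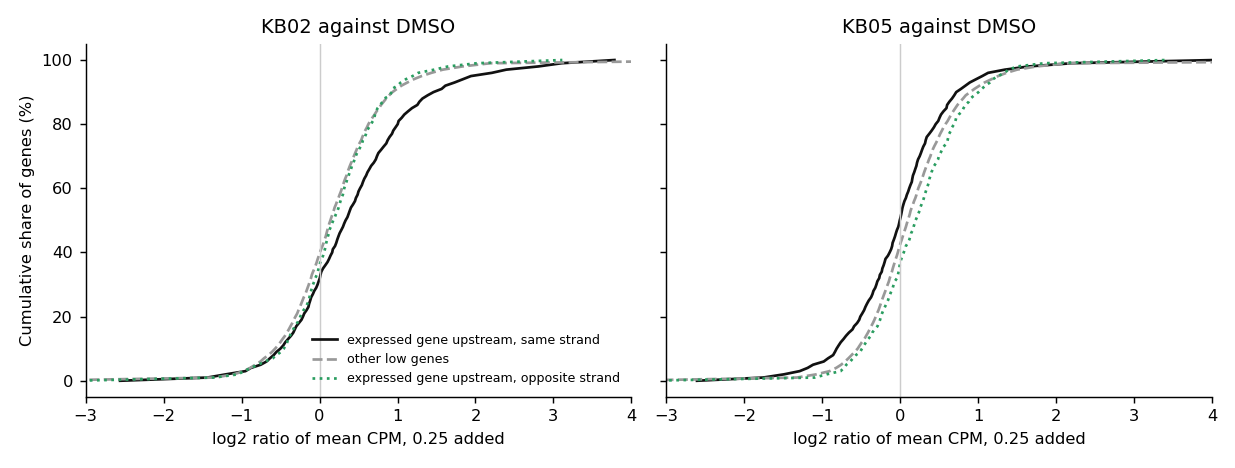
Cumulative share of genes (vertical axis, %) by log2 ratio of mean CPM with 0.25 CPM added (horizontal axis) for 926 low genes with an expressed same-strand gene ending within 10000 bp upstream, 7449 other low genes and 768 of these with an expressed opposite-strand gene upstream. With KB02 the line of the 926 genes lies to the right of the others over its upper part, and with KB05 it lies to their left over most of its length.

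Summed over all 926 genes, the level was 1226, 1249 and 1218 CPM in the DMSO libraries, 1953, 1856 and 1990 CPM with KB02 and 1379, 1327 and 1342 CPM with KB05. No KB02 library overlapped the other groups. The sum over other low genes was 9283 to 9502 CPM in DMSO, 11651 to 11855 with KB02 and 12213 to 12664 with KB05, so there the KB05 libraries were the highest. Relative to the upstream gene per kilobase of exon, the low genes' median level was 5.72% with KB02 and 3.68% with KB05.

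In edgeR's quasi-likelihood fit, with a Benjamini-Hochberg adjusted p under 0.05, 728 of the 926 genes passed the filter on low counts. For KB02 against DMSO 214 were called higher and 52 lower, where 22.8% and 23.3% of all 18379 genes tested were called. The 52 became 31 without KB02 replicate 2 and 34 with DESeq2. For KB05 against DMSO 88 were called higher and 90 lower, where 18.7% and 21.1% of all genes were called. Since the genes were chosen on their DMSO level, and a gene can pass the filter through the group where it is high, nothing is read from these calls. Of the 5368 other low genes that passed, 831 were called higher and 526 lower with KB02, and 808 and 319 with KB05.

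The position and strand of the expressed neighbour were compared with sets chosen under the same limits on level. Where the expressed upstream gene lay on the opposite strand (768 genes), 8.07% were at least 2-fold higher with KB02 and 10.2% with KB05. Where an expressed same-strand gene began within 10000 bp downstream instead (476 genes), the shares were 9.24% and 8.40%. With the same-strand upstream gene ending over 10000 and up to 50000 bp away (1372 genes), they were 14.0% and 6.41%. These shares are descriptions with no test of their difference.

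By distance, the share at least 2-fold higher with KB02 was 23.1% of 130 genes within 1000 bp, 22.6% of 195 from there to 2500 bp, 16.4% of 238 from there to 5000 bp and 20.4% of 363 from there to 10000 bp. Within the 10000 bp there was therefore no steady decline, and the Spearman correlation of the log2 ratio with distance was -0.04 across 926 genes. Beyond the limit of the rule the share was 17.3% of 510 genes up to 20000 bp, 12.1% of 862 up to 50000 bp, 8.24% of 849 up to 100000 bp and 7.63% of 5228 genes farther away or with no such gene. The longer distances were added after the values were seen.

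With KB05 the share at least 2-fold higher lay between 4.62% and 6.89% in the 4 bins up to 10000 bp, and was 8.82% in the farthest group. The share at least 2-fold lower ran the other way, at 4.62%, 5.64%, 6.72% and 6.06% in the 4 bins and 2.18% in the farthest group. The Spearman correlation with distance was 0.05 across the 926 genes. Genes are not independent replicates, and both members of a pair come from the same libraries.

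**Figure D2:**
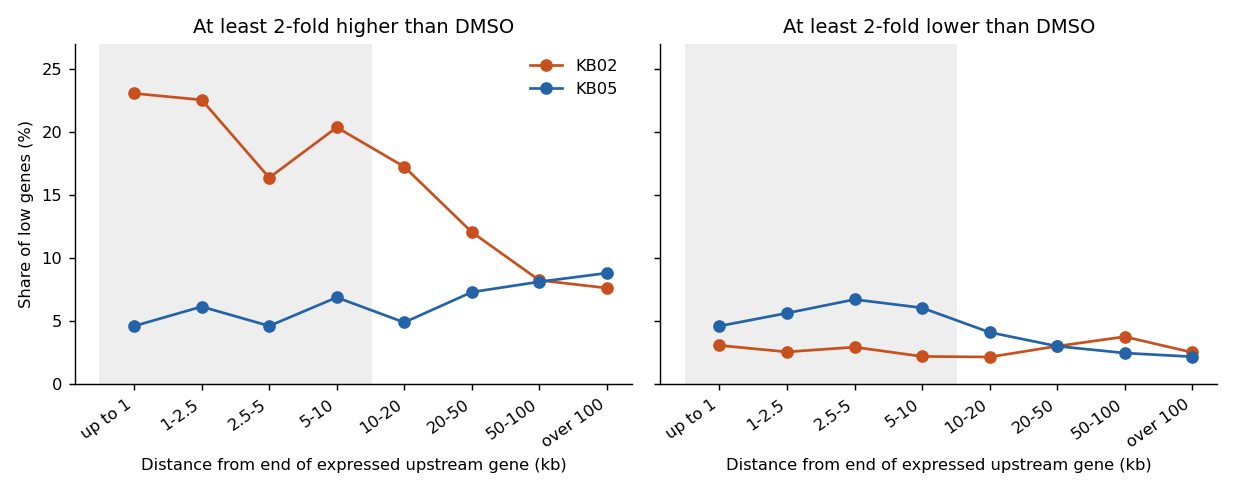
Share of low genes (vertical axis, %) at least 2-fold higher (left) or lower (right) than in DMSO, by distance from the end of the nearest expressed same-strand upstream gene (horizontal axis, kb) for KB02 and KB05, with the 926 genes within 10 kb on grey. The KB02 line on the left goes from 23.1% in the nearest bin to 7.63% in the farthest, and the KB05 line from 4.62% to 8.82%.

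Upstream genes were called in both directions. For KB02 against DMSO 199 of the 886 were called higher and 309 lower by edgeR (adjusted p under 0.05, the same background as above). The median log2 ratio of mean CPM of the 886 was 0.08, where all 21107 genes had 0.13. By ratio 25 (2.82%) were at least 2-fold higher and 38 (4.29%) at least 2-fold lower, against 6.6% and 3.37% of all 21107 genes. The upstream genes were chosen at 10 CPM or more, so the 21107, which include weakly expressed genes, are not matched to them in level. For KB05 192 were called higher and 288 lower, with a median of -0.02 where all genes had 0.02. With KB02, 703 of the 926 low genes had an upstream gene within 1.5-fold of its DMSO level, and so did 149 of the 187 that were at least 2-fold higher. The share at least 2-fold higher was 23.7% of the 93 low genes behind an upstream gene 1.5-fold or more higher, 21.2% of those 703 and 12.3% of the 130 behind one 1.5-fold or more lower. The low gene's ratio exceeded that of its upstream gene by 2-fold or more in 218 pairs with KB02 and fell short of it by as much in 54. With KB05 these were 87 and 71 pairs.

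Across the 926 pairs the Spearman correlation of the low gene's log2 ratio with its upstream gene's was 0.12 for KB02 and 0.07 for KB05. Sorted by the upstream gene's DMSO level, the share of low genes at least 2-fold higher with KB02 was 16.6% behind genes of 10 to 25 CPM, 20.6% at 25 to 50, 20.3% at 50 to 100 and 24.2% above. The low gene's own DMSO level showed a stronger relation, with a Spearman correlation of -0.26 for KB02 and -0.21 for KB05, which contains the DMSO level on both sides. At up to 0.5 CPM in DMSO 30.4% of the genes were at least 2-fold higher with KB02 (other low genes 12.7%), at 0.5 to 2 CPM 16.1% (6.20%) and at 2 to 5 CPM 12.2% (6.77%).

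**Figure D3:**
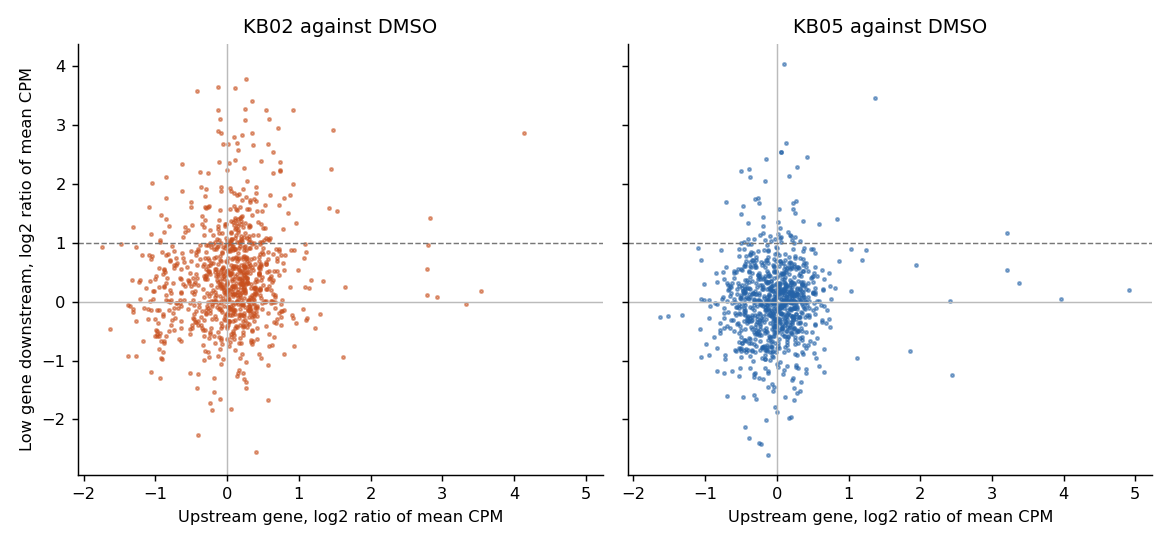
Log2 ratio of mean CPM against DMSO, with 0.25 CPM added, of each of 926 low genes (vertical axis) and of its nearest expressed upstream gene (horizontal axis), 1 point per pair, for KB02 (left) and KB05 (right); the dashed line marks 2-fold. With KB02 703 of all 926 pairs, and 149 of the 187 above the dashed line, have an upstream gene within 1.5-fold, so points above and below the line stand alike near 0 on the horizontal axis.

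The share differed with the kind of gene. Among protein-coding genes 25.8% of 481 were at least 2-fold higher with KB02, against 8.44% of protein-coding other low genes. Among those not protein-coding the shares were 14.2% and 9.35%. Antisense genes had 11.9% of 177 and long intergenic non-coding genes 16.4% of 110, against 7.63% and 7.13% of other low genes of the same kind. Genes with several exons had 22.8% of 693 against 8.36%, and single-exon genes 12.4% of 233 against 10.8%.

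Several of the genes with the largest KB02 ratios are best known from tissues other than prostate. AOC3 (ENSG00000131471, chr17:42851184-42858130, plus strand) encodes vascular adhesion protein 1, an amine oxidase of endothelium and fat, and starts 7426 bp behind PSME3, a proteasome activator subunit. Its level was 1.97, 1.26 and 1.88 CPM in the DMSO libraries, 30.1, 23.6 and 26.2 CPM with KB02 and 0.306, 0.839 and 0.442 CPM with KB05, a ratio of means of 15.6 for KB02 over DMSO. That no KB02 library overlapped the others was required by its choice as a named gene. The KB05 libraries were all below DMSO. PSME3 measured 82.1 ± 1.76 CPM in DMSO, 98.9 ± 12.3 with KB02 and 94.7 ± 6.41 with KB05 (mean ± SD, n = 3). AOC2, another amine oxidase gene between PSME3 and AOC3, had log2 ratios of 1.78 with KB02 and 0.05 with KB05.

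CD14 (ENSG00000170458, chr5:140631728-140633701, minus strand), the co-receptor for bacterial lipopolysaccharide on monocytes, starts 5039 bp behind NDUFA2, a subunit of respiratory complex I. It measured 0.623, 0.252 and 0.683 CPM in DMSO, 12.5, 8.06 and 7.38 CPM with KB02 and 0.102, 0.451 and 0.607 CPM with KB05, 17.9-fold higher with KB02 than in DMSO. PTPRC, a marker of all leukocytes, was 13.6 ± 3.32 CPM in DMSO and 10.2 ± 2.66 CPM with KB02. CD3E, another leukocyte marker checked, was 0.604 ± 0.175 CPM in DMSO and 0.768 ± 0.246 CPM with KB02. NDUFA2 stood at 152 ± 8.84 and 139 ± 13.7 CPM in the same groups.

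NHLH1 (ENSG00000171786, chr1:160367067-160372848, plus strand), a transcription factor of developing neurons, starts 8115 bp behind NCSTN, the gene of the gamma-secretase subunit nicastrin. The libraries gave 0.363, 0.454 and 0.171 CPM in DMSO, 8.04, 6.56 and 5.46 CPM with KB02 and 1.07, 0.709 and 0.442 CPM with KB05. The KB02 mean was 20.3-fold that of DMSO, while NCSTN went from 100 ± 1.61 to 75 ± 3.19 CPM. A low gene was here higher behind an upstream gene whose mean was lower.

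IKZF4 (ENSG00000123411, chr12:56007659-56038435, plus strand), the Ikaros-family factor Eos of regulatory T cells, starts 1018 bp behind SUOX, which encodes sulfite oxidase. Levels were 2.7, 1.61 and 1.76 CPM in DMSO, 22.3, 21.6 and 20.3 CPM with KB02 and 1.68, 1.87 and 1.05 CPM with KB05, 10.6-fold higher with KB02. SUOX was 105 ± 2.43 CPM in DMSO and 96.2 ± 0.944 CPM with KB02.

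PYGM (ENSG00000068976, chr11:64746389-64760297, minus strand), muscle glycogen phosphorylase, lies 4309 bp behind the splicing factor gene SF1. It was at 0.311, 0.706 and 1.2 CPM in DMSO, 10.5, 8.53 and 8.77 CPM with KB02 and 0.408, 0.451 and 0.331 CPM with KB05, a 12.6-fold ratio for KB02. SF1 measured 151 ± 7.35 and 181 ± 10.2 CPM in DMSO and KB02. The KB05 libraries of PYGM fell within the range of the DMSO libraries.

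BAAT (ENSG00000136881, chr9:101360417-101383519, minus strand), which joins bile acids to glycine and taurine in the liver, starts 4114 bp behind the mitochondrial ribosomal protein gene MRPL50. Its libraries gave 0.519, 0.403 and 0.399 CPM in DMSO, 7.4, 5.64 and 6.04 CPM with KB02 and 0.663, 0.193 and 0.883 CPM with KB05, 14.4-fold with KB02. MRPL50 measured 21.3 ± 3.18 CPM in DMSO and 31.2 ± 3.09 CPM with KB02. The KB02 libraries stood apart from DMSO, as the choice of named genes required, and also from KB05. The DMSO and KB05 libraries overlapped.

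CFAP53 (ENSG00000172361, chr18:50227193-50266522, minus strand) and TCTE1 (ENSG00000146221, chr6:44278743-44297688, minus strand) encode proteins of cilia and flagella. CFAP53 starts 360 bp behind MBD1, a methyl-CpG binding protein gene, and measured 0.259, 0.151 and 0.228 CPM in DMSO, 4.25, 5.27 and 4.41 CPM with KB02 and 0.255, 0.709 and 0.552 CPM with KB05, a 21.8-fold ratio for KB02. TCTE1 starts 1966 bp behind AARS2, the mitochondrial alanyl-tRNA synthetase, and measured 0.104, 0 and 0.114 CPM in DMSO, 4.37, 3.96 and 2.83 CPM with KB02 and 0.153, 0.129 and 0.276 CPM with KB05. The DMSO libraries held only 4 counts of TCTE1 in all, so its 51.3-fold ratio is loosely bounded. MBD1 went from 50.1 ± 1.12 to 63.7 ± 3.84 CPM and AARS2 from 43.2 ± 2.32 to 46.6 ± 1.92 CPM with KB02.

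Lower levels with KB02 could be seen only over a short range, since the rule kept the DMSO mean under 5 CPM. GIPC3, a PDZ-domain adaptor of inner-ear hair cells behind HMG20B, was at 2.7, 3.48 and 3.07 CPM in DMSO and 0.731, 0.815 and 1.34 CPM with KB02, 3.21-fold lower. TTR, the thyroxine carrier transthyretin, was at 2.13, 1.87 and 3.19 CPM in DMSO and 0.822, 0.91 and 0.987 CPM with KB02, 2.64-fold lower, and its upstream gene DSG2, a desmosomal cadherin, went from 72.2 ± 15.5 to 34.4 ± 4.47 CPM. TM6SF2, a lipid-handling gene of the liver behind SUGP1, and the Notch ligand gene DLL3 behind TIMM50 were 2.5-fold and 2.34-fold lower. That the KB02 libraries of all 4 lay below every DMSO library was required by the choice of named genes.

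**Figure D4:**
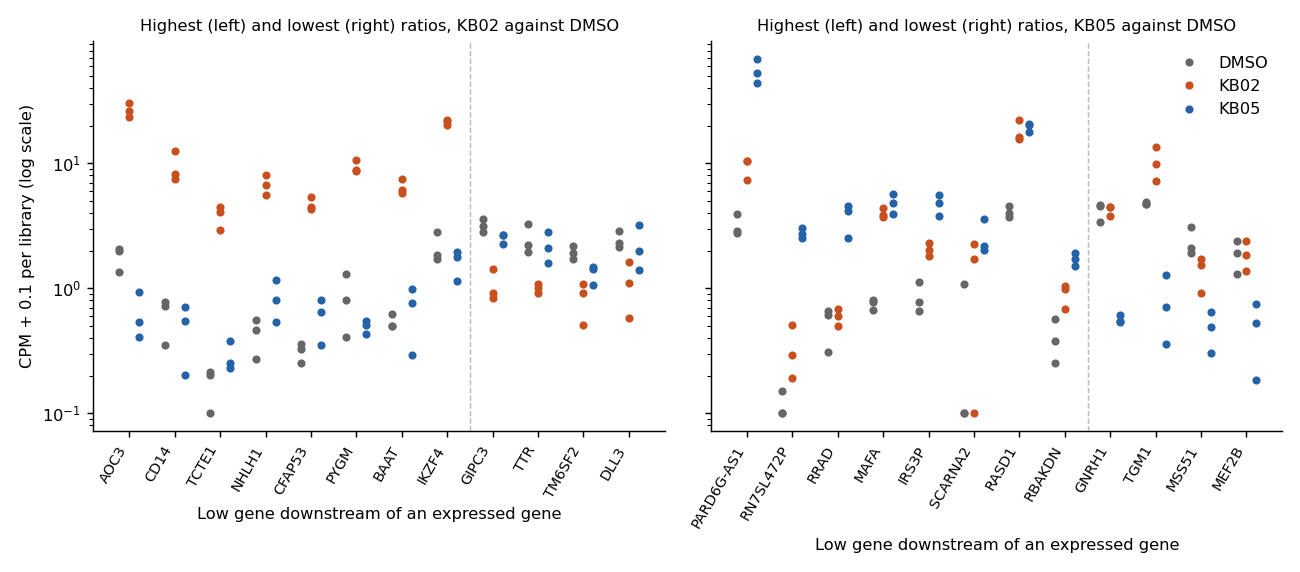
CPM plus 0.1 (vertical axis, log scale) in each of the 9 libraries for the genes with the 8 highest and 4 lowest ratios against DMSO among those with a gene symbol, at least 1 CPM, no overlap with an expressed gene and no overlap between the groups' libraries, left for KB02 and right for KB05; each point is 1 library. Ratios were ranked with 0.25 CPM added. On the left the KB05 points of AOC3, CD14 and PYGM lie with or below DMSO, and on the right RASD1 and MAFA are high with both compounds.

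Among the named genes, the largest KB05 ratio with counts in every DMSO library was in PARD6G-AS1 (ENSG00000267270, chr18:80147924-80178432, plus strand), a non-coding RNA 401 bp behind ADNP2. It measured 3.84, 2.67 and 2.79 CPM in DMSO, 10.4, 10.3 and 7.32 CPM with KB02 and 43.9, 52.6 and 68.2 CPM with KB05, 17.7-fold with KB05 and 3-fold with KB02. ADNP2, a homeobox zinc-finger gene, was 33 ± 2.58 CPM in DMSO, 59.4 ± 2.08 with KB02 and 35.4 ± 0.61 with KB05. The low gene was thus highest with the compound under which ADNP2 was near its DMSO level.

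RN7SL472P (ENSG00000240457, chr14:102077180-102077472, minus strand) is a pseudogene of the 7SL RNA of the signal recognition particle, behind the heat-shock chaperone gene HSP90AA1. It was at 0, 0.0504 and 0 CPM in DMSO, 0.0913, 0.192 and 0.407 CPM with KB02 and 2.6, 2.97 and 2.43 CPM with KB05. DMSO held 1 count in all, which gives a KB05 ratio of 150.1 with an exact 95% interval of 26.5 to 5969 for counting error only. HSP90AA1 was 1085 ± 94.1 CPM in DMSO, 2315 ± 39.1 with KB02 and 2803 ± 287 with KB05. Reads of near-identical 7SL copies are split by estimate, so the value is uncertain.

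RRAD, a Ras-like GTPase gene behind CIAO2B, was at 0.208, 0.555 and 0.512 CPM in DMSO, 0.502, 0.396 and 0.581 CPM with KB02 and 2.45, 4.06 and 4.47 CPM with KB05. Its KB05 libraries stood apart from both other groups, as its choice as a named gene required, with a mean 8.61-fold above DMSO. The KB02 libraries overlapped DMSO. RASD1, a dexamethasone-induced Ras-like gene behind PEMT, was at 4.46, 3.63 and 3.87 CPM in DMSO, 22.3, 15.7 and 16.1 CPM with KB02 and 20.5, 20.2 and 17.8 CPM with KB05, so it was high with both, and its upstream gene PEMT was lower with both (67.3 ± 4.33, 37 ± 2.35 and 47.3 ± 4.25 CPM). MAFA, a transcription factor of pancreatic beta cells behind ZC3H3, was likewise 6.02-fold higher with KB02 and 7.24-fold with KB05. IRS3P, a pseudogene behind AGFG2, was 6.19-fold higher with KB05, RBAKDN behind RBAK 5.39-fold, and the Cajal-body RNA SCARNA2 behind TMEM167B 7.63-fold, the last from DMSO libraries of 0.986, 0 and 0 CPM.

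Among genes lower with KB05, GNRH1, which encodes gonadotropin-releasing hormone and lies behind KCTD9, was at 4.57, 4.49 and 3.3 CPM in DMSO, 4.34, 4.41 and 3.72 CPM with KB02 and 0.51, 0.451 and 0.442 CPM with KB05. The KB02 libraries overlapped DMSO and the KB05 mean was 8.81-fold below it. TGM1, the transglutaminase of the cornified skin layer behind RABGGTA, was at 4.62, 4.79 and 4.67 CPM in DMSO, 9.82, 7.14 and 13.4 CPM with KB02 and 1.17, 0.258 and 0.607 CPM with KB05, so the compounds stood on opposite sides of the vehicle. MSS51 behind PPP3CB and the transcription factor gene MEF2B behind BORCS8 were 5.99-fold and 4.6-fold lower with KB05. Upstream, KCTD9 was 33.4 ± 4.49 and 30.5 ± 4.08 CPM and RABGGTA 53.4 ± 6.33 and 45.8 ± 3.03 CPM in DMSO and KB05.

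The compounds were also set against each other at matched dose and time, a comparison the choice of genes did not use except through the sum of counts. Of the 728 genes tested by edgeR's quasi-likelihood test, 42 were called higher and 200 lower with KB05 than with KB02, where 21.8% and 18.2% of all 18379 genes were called in those directions. By ratio, 25 of the 926 (2.70%) were at least 2-fold higher and 187 (20.2%) at least 2-fold lower, against 3% and 5.96% of all 21107 genes and 5.50% and 7.21% of other low genes. With 1 CPM added in place of 0.25, 8 (0.864%) were higher and 81 (8.75%) lower, against 1.53% and 2.42% of other low genes. The median log2 ratio was -0.32, against -0.01 in other low genes. Of the 622 genes without an overlap 22.2% were at least 2-fold lower.

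By distance, the share at least 2-fold lower with KB05 than with KB02 was 19.2% within 1000 bp, 23.1% from there to 2500 bp, 21.0% to 5000 bp and 18.5% to 10000 bp. Beyond the limit of the rule it was 17.6% up to 20000 bp, 11.0% up to 50000 bp, 6.12% up to 100000 bp and 5.74% farther away or with no such gene. Of the protein-coding genes 408 were tested, of which 25 were called higher and 121 lower with KB05. Of the genes that were not protein-coding 320 were tested, of which 17 were called higher and 79 lower. The ratio of the low gene between the compounds had a Spearman correlation of 0.11 with that of its upstream gene across 926 pairs. Of the 886 upstream genes 264 were called higher and 158 lower with KB05 than with KB02. A low gene could pass the filter on low counts through the KB02 libraries, where many were high, so nothing is read from the split of the low genes' calls.

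AOC3 had a log2 fold change of -5.58 (SE 0.22) for KB05 against KB02, with an adjusted p of 3.66e-18 by edgeR's quasi-likelihood test. SMG1P7 (ENSG00000261556, chr16:70219574-70246610, minus strand), a pseudogene of the decay kinase SMG1 that starts 168 bp behind the exosome subunit gene EXOSC6, measured 4.02, 4.8 and 3.64 CPM in DMSO, 37.6, 34.4 and 41.1 CPM with KB02 and 2.52, 1.52 and 2.64 CPM with KB05. Its log2 fold change was -3.94 (SE 0.15, edgeR adjusted p = 1.08e-18), with the reservation that reads of near-identical SMG1 copies are split by estimate. CD14 and PYGM followed with -4.49 (SE 0.38, edgeR adjusted p = 3.07e-08) and -4.42 (SE 0.31). That all 4 were lower in each KB05 library than in any KB02 library was required by their choice as named genes. PYGM passed the filter on low counts only through its KB02 libraries, so no p-value is given for it.

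In the other direction RN7SL472P had 3.67 (SE 0.47), RRAD 3.01 (SE 0.37) and PARD6G-AS1 2.67 (SE 0.20, edgeR adjusted p = 4.16e-06). RN7SL472P and RRAD passed the filter on low counts only through their KB05 libraries, so no p-value is given for them. FAM131B-AS2, an antisense gene behind the receptor tyrosine kinase gene EPHA1, was at 1.35, 1.51 and 1.54 CPM in DMSO, 1.19, 1.2 and 2.15 CPM with KB02 and 4.38, 5.61 and 5.13 CPM with KB05. Its log2 fold change was 1.86 (SE 0.26, edgeR adjusted p = 6.24e-07). RASD1 and MAFA, high with both compounds, differed between them by 0.22 (SE 0.12, edgeR adjusted p = 0.158) and 0.39 (SE 0.21, edgeR adjusted p = 0.148), which did not pass the threshold.

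**Figure D5:**
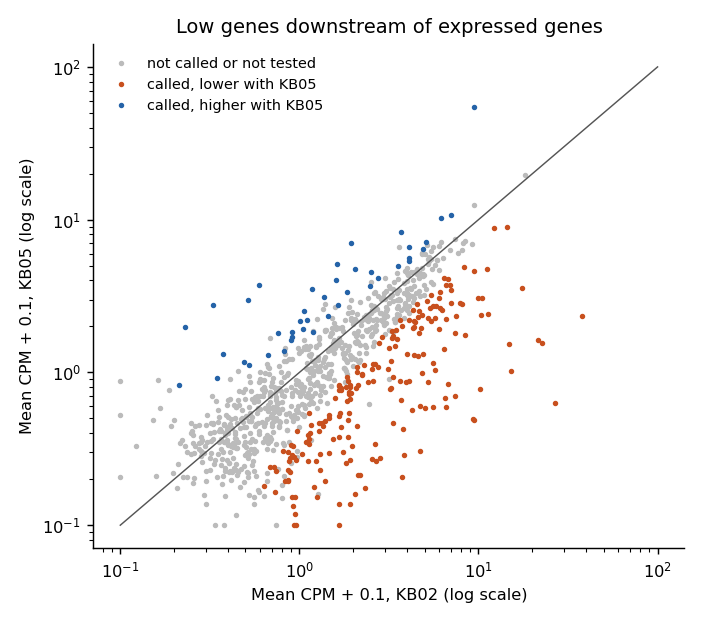
Mean CPM plus 0.1 with KB02 (horizontal axis, log scale) and KB05 (vertical axis, log scale) of the 926 low genes, 1 point per gene, coloured where edgeR called them at an adjusted p under 0.05; the line marks equal levels. The 200 genes called lower with KB05 lie below the line and the 42 called higher above it, PARD6G-AS1 being the highest point.

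Where 1 upstream gene had several low genes behind it (37 upstream genes, 77 low genes), the nearer of the first pair had the higher KB02 ratio in 17 of 37 cases and the higher KB05 ratio in 18. In 5 of the 37 both were at least 2-fold higher with KB02, in 4 only the nearer and in 5 only the farther. Among the 5 were AOC2 and AOC3 behind PSME3 and the sperm genes SPEM2 and SPEM3 behind NLGN2, with log2 ratios of 1.60 and 1.91. PRKXP1, a pseudogene behind LINS1, and the gene after it had 2.23 and 2.37. These examples were chosen after their values were seen.

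The RNA levels of genes for proteins that end transcripts were read from a list of 44 cleavage, polyadenylation and termination factors. All were tested by edgeR at an adjusted p under 0.05, and protein was not measured. With KB02 20 rose and 6 fell, with a median log2 fold change of 0.18, where all genes tested had a median of 0.00. With KB05 8 rose and 14 fell, with a median of -0.02. Between the compounds 3 were higher and 22 lower with KB05, with a median of -0.20 against 0.06 over all genes. Over all 18379 genes tested, the shares called higher and lower were 22.8% and 23.3% with KB02, 18.7% and 21.1% with KB05, and 21.8% and 18.2% between the compounds.

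The highest DMSO levels in the 4 distance bins belonged to IFFO1 behind NOP2 (4.88 ± 0.997 CPM), PYROXD2 behind HPS1 (4.97 ± 0.688 CPM), AL021707.2 behind JOSD1 (4.92 ± 0.197 CPM) and the clock gene BMAL2 behind STK38L (4.99 ± 0.786 CPM). With KB02 they measured 6.34 ± 1.18, 5.92 ± 0.700, 5.33 ± 0.675 and 5.14 ± 0.221 CPM (SD, n = 3). None of the 4 therefore reached 2-fold. At the limit of the level, BMAL2 was just inside with a KB02 log2 ratio of 0.04 and CARD9 just outside with 5.06 CPM and 0.39. At the limit of the distance, AC109449.1 at 9998 bp had 0.76 and SNAI3 at 10002 bp had 0.66. At the limit of the counts, AP001057.1 with 30 counts had 0.37 and AC004492.1 with 29 had 0.42, and at the limit of the upstream level, LAMTOR5-AS1 behind a gene of 10.1 CPM had 0.23 and DDX25 behind one of 9.98 CPM had 1.03.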

How the data were processed

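Salmon 1.3.0 and DESeq2 1.30.1 are the tools, and hg38 and GRCh38.p13 the builds, named in the submitters' processing notes; no annotation release is given in the sources read. The authors deposited estimated counts, a column for each library, without depth scaling, of which 20.3% to 24.3% per library were fractional. Gene IDs were matched without version to GENCODE release 29, which placed 57997 of 60232. Promoters came from RefSeq, GRCh38.p14. Levels are CPM by column sum. Counts were rounded and fitted for all 9 libraries in edgeR 4.0.16 (TMM factors, filterByExpr with a minimum count of 10, robust quasi-likelihood test, Benjamini-Hochberg threshold 0.05), which was tested on simulated data. No replicate pair agreed within counting noise (chi-square per degree of freedom 4.28 to 9.75). DESeq2 1.42.0, other scalings and filters, left-out libraries, a replicate block and other limits of the rule were tried as alternatives.

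The genes and lists were chosen with earlier results of these data known. Named genes were those whose libraries did not overlap between the groups compared, that overlapped no gene of 10 CPM or more, reached 1 CPM and had a gene symbol: the 8 largest ratios upward and 4 downward for each compound against DMSO, and the 4 largest called in each direction between compounds. A clone-like name kept out 1 gene in each of 3 of these groups. The ranking used the ratio with 0.25 CPM added, while the folds printed for named genes have nothing added, so the orders differ. The splits by gene kind, exon number and level, the longer distances and the sequence counts were added after the values were seen. No p-value is given for single genes against DMSO, since the rule used the DMSO level. Between the compounds none is given for named genes that passed the filter only through the group where they were high.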

Additional observations from a re-analysis of the deposited data

How the results depend on the processing

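Counts and correlations that moved with the processing were these. With the window set to 5000 bp, which leaves fewer genes, 133 genes were called higher and 31 lower for KB02 against DMSO, 44 higher for KB05, and 19 higher and 133 lower for KB05 against KB02; 113 and 29 genes were at least 2-fold higher with KB02 and KB05. The correlations with the upstream ratio were then 0.162 and 0.121 and those with distance -0.0622 and -0.0188, so the sign for KB05 changed. Genes that overlapped no expressed gene gave 28 called lower with KB02 and 53 with KB05. These were 5.68% and 10.8% of 493 such genes tested, against 7.14% and 12.4% of all 728 tested. A DMSO limit of 2 CPM, which also leaves fewer genes, gave 22 lower with KB02 and 54 higher and 49 lower with KB05. It gave 25 higher between the compounds and a KB05 distance correlation of 0.00777. With at least 100 summed counts the KB02 correlations were 0.159 with the upstream ratio and -0.0692 with distance. Adding 1 CPM instead of 0.25 left 76 genes (8.21%; other low genes 3.17%) at least 2-fold higher with KB02 and 26 with KB05, and a KB02 distance correlation of -0.0533. CPM by TMM library size gave 156 genes (16.8%, other low genes 7.50%) at least 2-fold higher with KB02. The KB02 median log2 ratio of other low genes was then 0.04, against 0.14 with CPM by column sum. DESeq2 called 34 lower with KB02, where edgeR called 52; the cause was not tested. Leaving out 1 library at a time gave 31 to 56 lower with KB02, the 31 without KB02 replicate 2. Same-numbered libraries had correlations of -0.0412 to 0.0813, so the numbers are not taken to pair them; with the replicate block 212 were called higher and 52 lower for KB02, 85 and 89 for KB05 and 45 and 203 between the compounds. Of 416 alternative values for 26 named genes between the compounds, 405 kept their direction and side of the threshold and none reversed; 9 lost the call, 7 of them RBAKDN and 2 DLL3, and 2 gained it, RASD1 and TM6SF2. Counting error limits genes near 0.137 to 0.193 CPM, where a library holds 3 counts.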
